A study of Macaca fascicularis with 15 samples.

Results

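The cytoskeletal genes described here encode tubulins, the proteins that bind microtubules, and the kinesin, dynein and dynactin subunits that carry cargo along them. They were taken by name, as every entry of the monkey eye tables whose symbol begins with KIF and a digit, TUBA, TUBB, STMN, DYNC1, DYNLL, DYNLRB, KLC, DCTN or MAP1, together with MAP2, MAP6 and MAPT. KIF3A, KIF3B and KIF17 were left out by that rule. This gave 55 genes of the 12995 entries kept, and the rule itself uses names and no values, although it was written with earlier results of these data known.

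RNA was sequenced from eyes of the cynomolgus monkey (Macaca fascicularis), and 11 libraries were analysed: 4 of central retina, 3 of peripheral retina, 2 of whole retina and 2 of whole eye. All animals are labelled wild type in strain and genotype, all tissue was kept in RNALater, an RNA-preserving solution, and each sample was made from 1 eye; age and treatment are not given. The regional libraries set the centre of the retina, where the macula serves sharp vision, against its periphery. The other 4 sample records, of whole eye and whole retina, were not analysed here.

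Microtubules are hollow polymers of alpha and beta tubulin with a fast-growing plus end, which in axons points away from the cell body. Most kinesins walk towards the plus end and carry vesicles, mitochondria and cytoskeletal parts outward, while cytoplasmic dynein, working with dynactin, carries cargo back. In the retina, the ganglion cells send the only axons that reach the brain, and these long axons depend on such transport.

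The values are the authors' normalized signal, with no unit stated, so each gene is compared across libraries and levels of different genes are not compared. Differences are of mean log2(value + 1), written as central minus peripheral and so on, and were tested with limma across the 11933 entries whose mean reached 1 or more in any group. An entry passed at an adjusted p under 0.05 over all tested entries. The labels do not say if different animals gave the regional samples, and p-values thus measure spread between samples that may be technical. Of the 55 genes, 51 were tested; KIF11, the mitotic motor, was listed at 0 in all 11 libraries, and KIF4A, KIF18A and KIF6 stayed under the minimum. Absolute depth is unknown, and between 171 and 501 entries were listed at 0 in a library. In 15 of the 55 genes, namely the 6 DCTN genes, the 7 tubulins, MAP2 and MAP6, the symbol shares its start with another symbol in the tables, and values under such names may have been exchanged in some libraries. DCT, the partner name of the DCTN genes, had values of at most 3.15 in the regional libraries, below those of every DCTN gene, but 38.4 and 67.2 in whole retina and 82.2 and 75.0 in whole eye, within the range of the DCTN genes there. TUB, the partner name of the tubulins, had 79.0, 57.8, 75.8 and 59.0 in central libraries, within the range of TUBA4A, and 69.5, 72.7 and 71.0 in peripheral libraries, above that of TUBA4A. Whether values were exchanged in these cases was not tested.

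The libraries labelled whole retina were closer to the whole eye than to either retinal region, with log2 correlations across entries of 0.914 to 0.955 with whole eye, 0.803 to 0.834 with central retina and 0.838 to 0.875 with peripheral retina. Muscle genes (ACTA1, MYH11, DES and ACTA2, 4 of 4 in the tables) summed to 10.3 to 15.3 in the 4 central and 10.2 to 11.5 in the 3 peripheral libraries. Their sums were 1201 and 1399.9 in whole retina and 1239 and 585 in whole eye. ACTA1 alone went the other way in whole retina, with 0.53 and 0.58 there against 1.49 to 3.42 in the regional libraries. Lens genes (5 of 5) summed to at most 4.81 in every regional library, against 526 and 365 in whole retina and 2695 and 2955 in whole eye. The comparisons with whole retina below are therefore made with libraries in which markers of other eye tissues are high.

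All 4 alpha tubulins and 3 of 6 structural microtubule-associated proteins were higher in the central than in the peripheral retina. So were 2 of 9 transport kinesins, KIF5A and KIF1A, and 2 of 4 kinesin light chains, KLC1 and KLC2. Among the 51 tested genes, 16 were higher in central retina, where 12.5% of all tested entries were, and 2 were lower, where 8.76% of all tested entries were. The median difference over the 51 genes was 0.22, against −0.01 over all tested entries, and 34 of the 51 differences were positive. KIF5A, the neuronal heavy chain of kinesin-1, and STMN2, a neuronal tubulin-binding stathmin, had the largest differences, with central means 3.77 and 3.38 times the peripheral ones. Each of the 16 genes had all 4 central libraries above all 7 other libraries, as had 68.5% of the 1493 entries called higher in central retina and 10.9% of all tested entries. Means are given with the SD over the 4 central or 3 peripheral libraries. In bulk tissue, fewer cells of a type and less RNA per cell cannot be told apart.

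**Figure D1:**
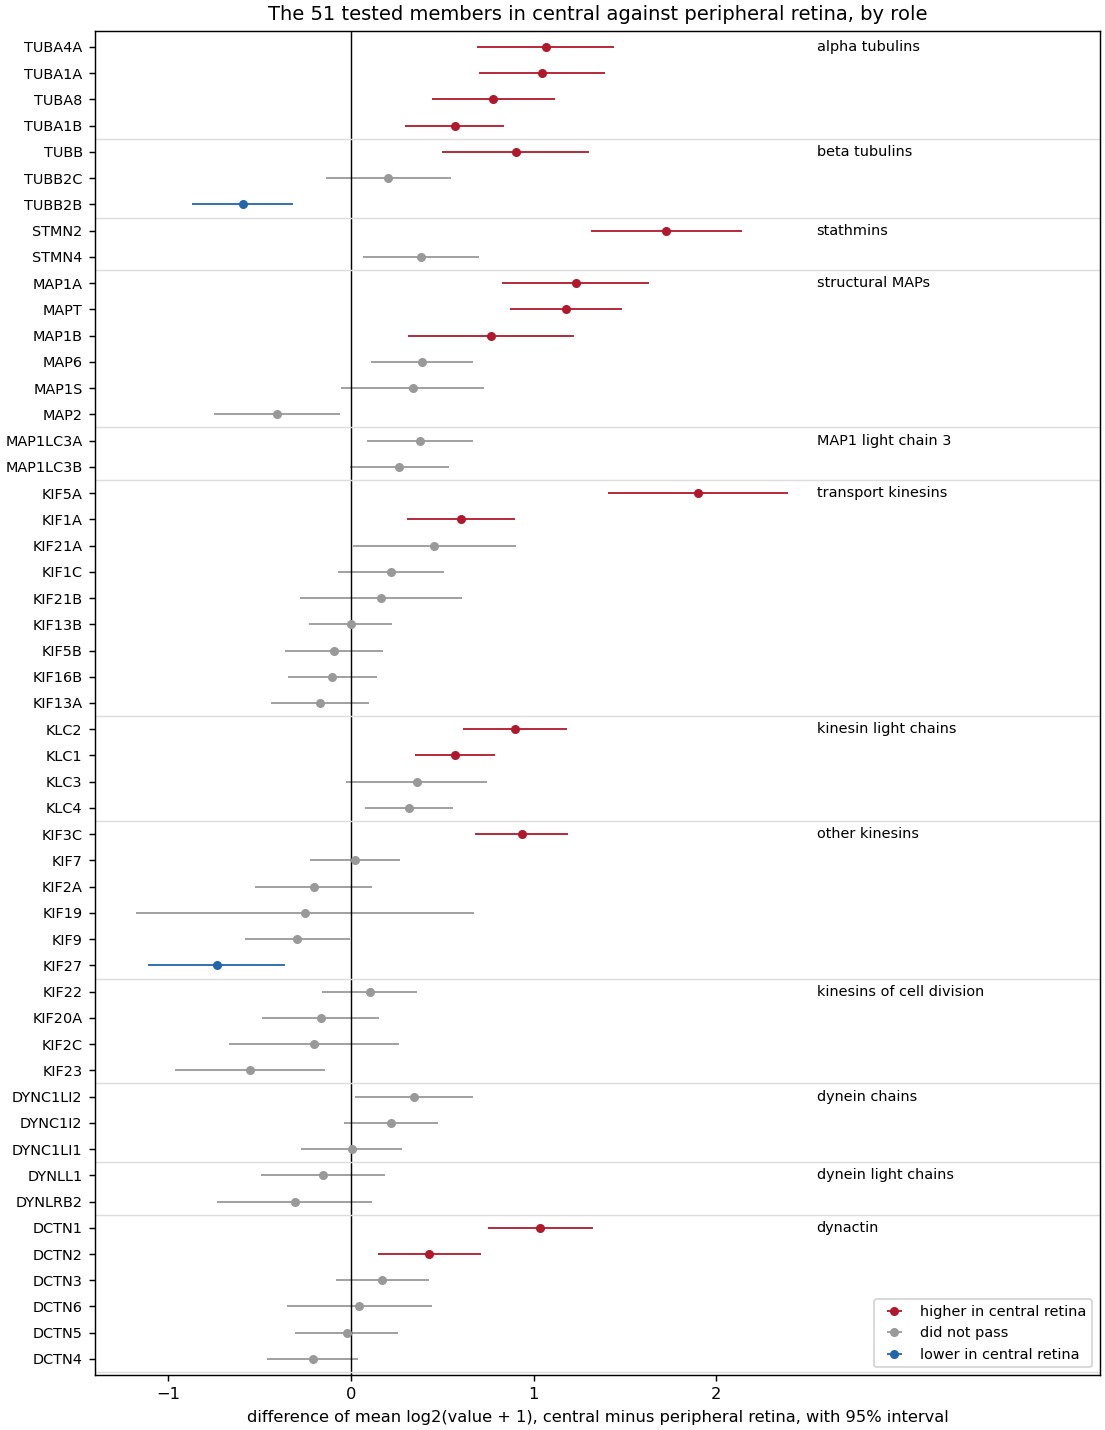
Fitted difference of mean log2(value + 1), central minus peripheral retina, with its 95% interval for each of the 51 tested genes, grouped by role from top to bottom. Red points (16) passed as higher in central retina, where 12.5% of all tested entries did. Blue points (2) passed as lower, where 8.76% of all tested entries did, and grey points did not pass. All 4 alpha tubulins are red, and no dynein gene is coloured.

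The libraries also differed in cell markers. All 8 tested ganglion cell markers of 11 listed (NEFL, NEFM, SNCG, POU4F2, SLC17A6, THY1, GAP43 and INA) were higher in central retina, with differences of 0.84 to 2.63 and a median of 1.98. Their summed values were 2095, 2499, 2795 and 3979.7 in the 4 central libraries, against 731, 419 and 670.4 in the 3 peripheral libraries. Whole retina held 767 and 537, against 822 and 729 in whole eye, and none of the 8 was at 0 in any library. Of the Müller glia markers 4 of 5 were lower in central retina, with sums of 899.7 to 1180.5 in central and 1610.5 to 1877 in peripheral libraries. Of the rod markers 3 of 7 were lower and of the cone markers 2 of 6 were higher. Pigment epithelium markers, 3 of 4 of them lower, summed to 64.2 to 151 in central and 345 to 532 in peripheral libraries. Beside these marker counts, 12.5% of all tested entries were higher and 8.76% lower in central retina. The part of these marker differences in the gene values below was not tested.

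Tubulins make the track itself. All 4 alpha tubulin genes were higher in central retina, where 12.5% of all tested entries were. TUBA1A, the main alpha tubulin of neurons, had values of 398, 429, 417 and 543 in the 4 central libraries, against 228, 177 and 242 in the 3 peripheral libraries. The lowest central library lay above the highest peripheral one by a wide margin, and whole retina (265 and 251) and whole eye (349.8 and 267) lay between them. The log2 difference was 1.05 (SE 0.16, limma adjusted p = 0.000921). TUBA4A, another alpha tubulin, had 54.0, 57.8, 57.4 and 81.1 in central and 34.6, 22.3 and 31.4 in peripheral libraries. Central replicate 4, where TUB had 59.0, stood well above the other 3, which all exceeded every peripheral library (difference 1.07, SE 0.17, limma adjusted p = 0.00134). TUBA8 averaged 18.7 ± 3.89 in the central libraries (SD, n = 4) and 10.4 ± 1.63 in the peripheral ones (SD, n = 3). TUBA1B, which most cell types express, averaged 259 ± 35.1 in central and 173 ± 10.5 in peripheral retina, the smallest difference of the 4 at 0.57.

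The 3 beta tubulin genes did not move together. TUBB, a broadly expressed beta tubulin, had 456, 414, 526 and 677 in central and 271, 228 and 326 in peripheral libraries, without overlap (difference 0.90, SE 0.18, limma adjusted p = 0.00573). TUBB2B, a beta tubulin of developing neurons, was lower in central retina, with 18.1, 17.4, 16.9 and 21.9 in central against 27.0, 29.2 and 29.0 in peripheral libraries. Its highest central value, in replicate 4, stayed below the lowest peripheral value (difference −0.59, SE 0.13, limma adjusted p = 0.00733). TUBB2C, an older symbol of TUBB4B, averaged 583 ± 76.1 in central and 503 ± 22.8 in peripheral retina and did not pass, with a 95% interval of the difference from −0.14 to 0.55. TUBB and the TUBB2 symbols share their start with one another, and near-identical coding sequences of tubulin genes can also share reads, so the split between these 3 genes is uncertain. The limit from shared reads holds for the split between the 4 alpha tubulin genes as well.

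Stathmins bind free tubulin and set how fast microtubules grow and shrink. STMN2 had 162, 261, 208 and 271 in central libraries, against 80.8, 58.9 and 60.6 in peripheral libraries. The central values varied among themselves, with replicate 1 lowest, and all lay above every peripheral value. The difference was 1.73 (SE 0.19, limma adjusted p = 0.00016). STMN4, its relative in the nervous system, averaged 29.2 ± 4.08 in central and 22.0 ± 1.68 in peripheral retina and did not pass (difference 0.38, limma adjusted p = 0.0836).

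Structural microtubule-associated proteins stabilise and space the polymers. Of 6 such genes 3 were higher in central retina, where 12.5% of all tested entries were: MAP1A, MAPT and MAP1B. MAP1A, found mainly in mature neurons, had 43.6, 42.1, 42.9 and 50.7 in central and 25.2, 14.3 and 17.4 in peripheral libraries. MAPT, which encodes the axonal protein tau, had 20.1, 24.0, 23.6 and 28.1 in central and 11.3, 10.4 and 8.36 in peripheral libraries. Both genes thus had more than the peripheral level in each central library, at differences of 1.23 for MAP1A (SE 0.18, limma adjusted p = 0.000903) and 1.18 for MAPT (SE 0.14, limma adjusted p = 0.000225). MAP1B, prominent in growing axons, had 90.5, 81.7, 88.2 and 90.5 in central libraries, which were close together, and 68.3, 46.9 and 41.5 in peripheral libraries, which were spread widely. Its difference of 0.77 (limma adjusted p = 0.0233) did not pass without central replicate 3 or 4 or without peripheral replicate 2 or 3, at adjusted p up to 0.0934.

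The remaining microtubule-associated proteins did not pass. MAP2, the protein that marks dendrites, had 63.3, 66.5, 54.0 and 49.6 in central and 84.6, 83.1 and 65.2 in peripheral libraries, an overlap of 1 central and 1 peripheral library (difference −0.41, 95% interval −0.75 to −0.06, limma adjusted p = 0.0897). MAP6, which makes microtubules cold-stable, averaged 81.4 ± 9.82 in central and 61.9 ± 6.57 in peripheral retina at a limma adjusted p of 0.0502, just outside the threshold. MAP1S averaged 17.7 ± 2.05 in central and 13.8 ± 1.85 in peripheral retina. MAP1LC3A and MAP1LC3B, whose proteins coat autophagosomes, had differences of 0.38 and 0.27 and did not pass either (limma adjusted p = 0.0627 and 0.149).

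**Figure D2:**
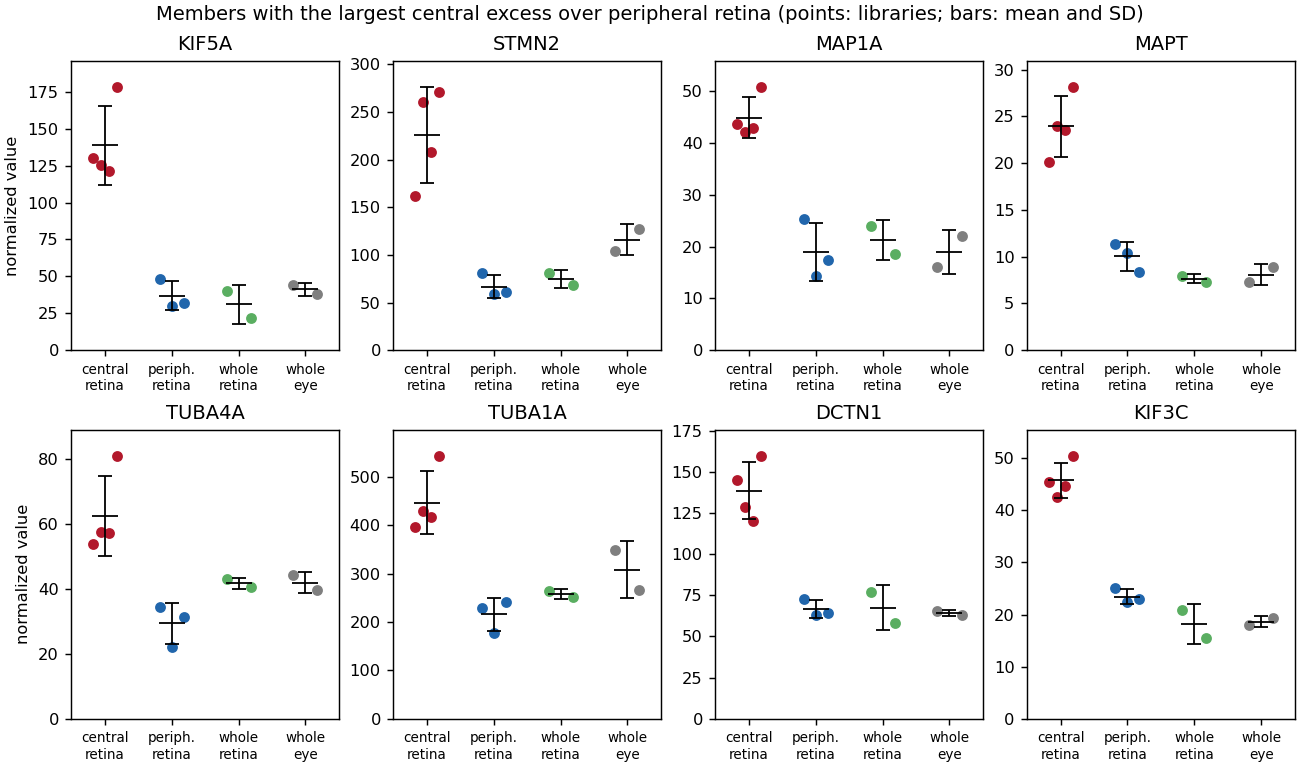
Normalized values of the 8 genes with the largest central excess in each of the 11 libraries (points), with the mean and SD of each group (bars), for central, peripheral and whole retina and whole eye from left to right. The genes were picked among those that passed without overlap of central and peripheral libraries, so that separation was set by the choice. In every panel all 4 central points lie above all other points. The same held for 68.5% of the 1493 entries called higher in central retina and 10.9% of all tested entries. For KIF5A the central values start at 122 and the other values end at 48.0.

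Among the 9 kinesins that carry cargo or act in transport, 2 were higher in central retina, KIF5A and KIF1A. Of all tested entries 12.5% were higher. KIF5A had 129.8, 125, 122 and 178 in central libraries, against 48.0, 30.1 and 32.1 in peripheral libraries, 40.1 and 21.8 in whole retina and 44.3 and 37.9 in whole eye. Central replicate 4 was highest, and the other 3 central libraries were close together and far above every other library. The difference was 1.90 (SE 0.22, limma adjusted p = 0.000226). KIF5B, the kinesin-1 heavy chain found in most cells, had 36.9, 42.3, 38.4 and 32.9 in central and 44.8, 39.2 and 36.3 in peripheral libraries. These ranges overlapped, and the 95% interval of the difference ran from −0.36 to 0.18 (limma adjusted p = 0.632). KIF5C, the other neuronal heavy chain, was not analysed here.

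KIF1A, a kinesin-3 motor of synaptic vesicle precursors, had 97.5, 71.7, 85.0 and 88.4 in central and 59.5, 54.9 and 53.0 in peripheral libraries. The groups did not overlap, and the difference was 0.60 (SE 0.13, limma adjusted p = 0.00956). KIF1C, a related kinesin-3, averaged 9.96 ± 0.86 in central and 8.41 ± 0.499 in peripheral retina and did not pass. KIF21A and KIF21B, kinesin-4 motors of neurons, differed by 0.46 and 0.16 and did not pass (limma adjusted p = 0.132 and 0.599). KIF13A, KIF13B and KIF16B, kinesin-3 motors of endosomal and other membrane cargo, differed by −0.17, −0.00 and −0.10 and did not pass.

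Kinesin light chains join the kinesin-1 heavy chains to cargo. KLC2 had 141, 136, 157 and 171 in central and 80.2, 75.1 and 85.7 in peripheral libraries, and KLC1 had 242, 256, 245 and 263 in central and 175, 157 and 176 in peripheral libraries. Neither gene showed any overlap, and the differences were 0.90 (SE 0.13, limma adjusted p = 0.000736) for KLC2 and 0.57 (SE 0.10, limma adjusted p = 0.00222) for KLC1. KLC3 and KLC4 had positive differences of 0.36 and 0.32 and did not pass (limma adjusted p = 0.166 and 0.0606).

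Of 6 tested kinesins with other roles, 1 was higher and 1 was lower, where 12.5% of all tested entries were higher and 8.76% lower. KIF3C, a kinesin-2 subunit enriched in neurons, had 45.4, 42.5, 44.7 and 50.4 in central and 25.0, 22.3 and 23.0 in peripheral libraries. Both groups were tight and far apart (difference 0.93, SE 0.12, limma adjusted p = 0.000298). KIF27, related to the ciliary kinesin KIF7, had 4.01, 4.70, 3.94 and 3.32 in central and 8.58, 7.96 and 5.59 in peripheral libraries. Its values were low in all libraries, and its difference of −0.74 (limma adjusted p = 0.0118) did not pass without peripheral replicate 1 or 2, at adjusted p up to 0.0583. KIF2A, which takes microtubules apart at their ends, averaged 21.5 ± 2.99 in central and 24.9 ± 3.80 in peripheral retina and did not pass (95% interval −0.52 to 0.12). KIF7 and KIF9 differed by 0.02 and −0.29 and did not pass.

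None of the 4 tested kinesins of cell division passed in either direction in limma, and 1, KIF23, had an unadjusted p under 0.05. Among all tested entries 12.5% were higher and 8.76% lower, so 0 of 4 is near those shares. KIF23, which acts at the spindle midzone, had 1.15, 0.67, 0.86 and 1.11 in central and 1.09, 2.65 and 2.01 in peripheral libraries, with the peripheral values of replicates 2 and 3 the highest of all 11 (limma adjusted p = 0.0569). KIF22 averaged 13.5 ± 1.35 in central and 12.6 ± 1.72 in peripheral retina. KIF20A and KIF2C stayed under 1 in every central and peripheral library. Of 6 dividing-cell markers in the tables, 2 (CDK1 and CCNA2) were lower in central retina, where 8.76% of all tested entries were. CDK1 had 6.07 in central replicate 2, within its peripheral range of 5.96 to 7.30, and 0.27 to 0.36 in the other central libraries. The 6 markers summed to 5.57 to 13.4 in central libraries, highest in replicate 2, and to 15.2 to 18.1 in peripheral libraries.

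Dynein is the retrograde motor. None of the 5 dynein genes passed in limma in either direction, and 1, DYNC1LI2, had an unadjusted p under 0.05. Over all tested entries 12.5% were higher and 8.76% lower, so 0 of 5 is near those shares. DYNC1I2, the intermediate chain that meets dynactin, had 34.0, 42.9, 32.6 and 35.6 in central and 31.7, 33.2 and 28.0 in peripheral libraries, with overlap (limma adjusted p = 0.204). The light intermediate chains DYNC1LI1 and DYNC1LI2, which hold cargo adaptors, differed by 0.00 (95% interval −0.27 to 0.28) and 0.35 (95% interval 0.02 to 0.67). DYNLL1, a light chain shared with other complexes, averaged 136 ± 12.9 in central and 152 ± 33.4 in peripheral retina, and DYNLRB2 averaged 26.9 ± 4.73 in central and 33.3 ± 2.89 in peripheral retina. The heavy chain gene DYNC1H1 was not analysed here.

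Of the 6 dynactin genes, DCTN1 and DCTN2 were higher in central retina, where 12.5% of all tested entries were. DCTN1, whose protein binds both dynein and the microtubule, had 145, 129, 120.4 and 159.7 in central and 72.6, 63.1 and 64.3 in peripheral libraries. The groups were clearly apart (difference 1.04, SE 0.13, limma adjusted p = 0.000326), and whole retina (77.0 and 58.0) and whole eye (65.3 and 62.8) were at the peripheral level. DCTN2, the dynamitin subunit, had 119, 128, 120.0 and 160.3 in central and 98.0, 86.1 and 108 in peripheral libraries. Its difference of 0.43 (limma adjusted p = 0.0364) did not pass without central replicate 3 or 4 or peripheral replicate 1 or 2, at adjusted p up to 0.163. DCTN3, DCTN4, DCTN5 and DCTN6 had differences of −0.21 to 0.17 and did not pass.

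**Figure D3:**
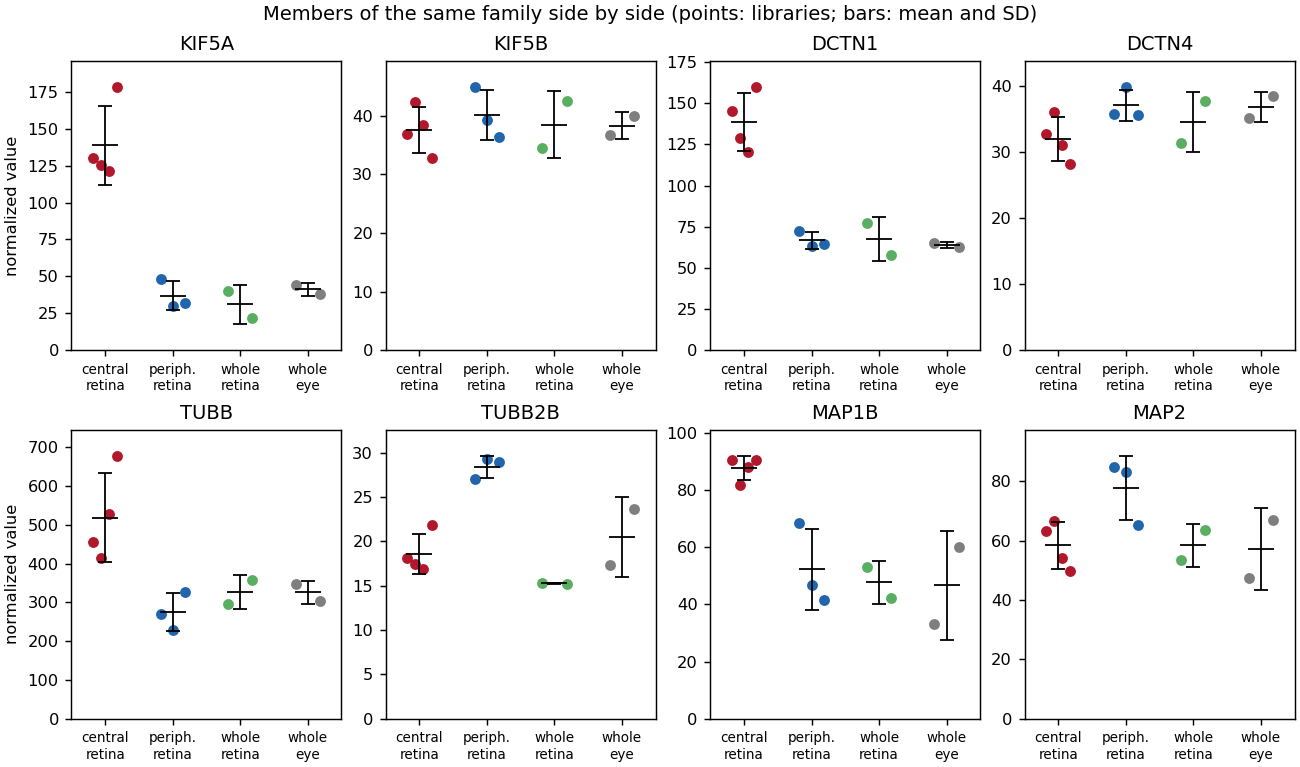
Normalized values of related genes in each of the 11 libraries (points), with the mean and SD of each group (bars), for central, peripheral and whole retina and whole eye from left to right. KIF5A, DCTN1, TUBB and MAP1B have all central points above all others, whereas KIF5B, DCTN4 and MAP2 overlap between the regions and TUBB2B is highest in peripheral retina. These pairs, part of the 6 given below, were chosen after their values were seen. KIF1A with KIF1C and KLC2 with KLC1, whose ratios differed less, are not shown.

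Ratios of 2 genes within a library give the same contrasts free of the scale of the library. The 6 pairs were chosen after their values were seen and are given as descriptions without a test, and the ratio itself is read only across libraries. KIF5A over KIF5B was 2.96 to 5.42 in central, 0.768 to 1.07 in peripheral, 0.514 to 1.17 in whole retina and 0.947 to 1.21 in whole eye libraries. DCTN1 over DCTN4 was 3.57 to 5.67 in central and 1.59 to 2.03 in peripheral libraries. TUBB over TUBB2B was 23.8 to 31.1 in central and 7.80 to 11.2 in peripheral libraries. MAP1B over MAP2, an axonal and a dendritic protein gene, was 1.23 to 1.82 in central and 0.564 to 0.807 in peripheral libraries. KIF1A over KIF1C (8.25 to 9.28 in central, 6.12 to 7.44 in peripheral) and KLC2 over KLC1 (0.529 to 0.652 in central, 0.459 to 0.487 in peripheral) differed less. None of the 6 ratios overlapped between the regions. Because the pairs were chosen with their values known, this lack of overlap adds no evidence to the single gene results.

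Single libraries recurred at the ends of the groups for the 16 genes higher in central retina. Central replicate 4 was the highest central library in 13 of the 16, and peripheral replicate 2 the lowest peripheral library in 13. The same count was not made over all tested entries. All entries summed to 335644 in central replicate 4, against 308095 to 314185 in the other central libraries. They summed to 303602 in peripheral replicate 2, against 299480 and 323582 in the other peripheral libraries. The same 2 libraries were at the ends of the ganglion cell marker sum, with 3979.7 in central replicate 4 and 419 in peripheral replicate 2, and the part of that marker sum in the gene values was not tested. With each regional library left out in turn, 14 of the 16 higher calls and 1 of the 2 lower calls passed in every fit.

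Further microtubule and transport genes were read from a list of 80 names, of which 52 were in the tables and 51 were tested. Of these, 17 were higher and 4 lower in central retina, with a median difference of 0.18, where 12.5% of all tested entries were higher and 8.76% lower. The share of lower genes was thus not above that of all entries, and the genes named here were chosen after their values were seen. FEZ1, a kinesin-1 adaptor, averaged 117 ± 9.88 in the central libraries (SD, n = 4) and 53.2 ± 6.82 in the peripheral ones (SD, n = 3). MAPK8IP3, a scaffold that joins kinesin-1 and dynein to cargo, averaged 59.9 ± 7.75 in central and 25.2 ± 1.75 in peripheral retina. DPYSL2, which brings tubulin to growing axons, averaged 117 ± 15.5 in central and 56.2 ± 8.69 in peripheral retina, and ACTR1B, a filament subunit of dynactin, averaged 119.5 ± 14.1 in central and 62.8 ± 3.94 in peripheral retina. These 4 had log2 differences of 1.12, 1.21, 1.04 and 0.91. The 4 lower genes were AGTPBP1, a tubulin deglutamylase, CAMSAP1, which binds microtubule minus ends, TUBE1, the epsilon tubulin, and MAP7, a kinesin-1 cofactor, at differences of −0.78, −0.47, −0.49 and −0.38. The names MAPK8IP3, AGTPBP1, CAMSAP1, TUBE1 and MAP7 also share their start with another name.

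No gene of the list passed between whole retina and whole eye, a count near the share over all tested entries. With limma, 0 of the 51 genes were higher and 0 lower in whole retina, where 0.168% of all tested entries were higher and 2.1% lower, and 6 genes had an unadjusted p under 0.05. The median difference was −0.05 over the 51 genes and −0.01 over all tested entries. With 2 libraries in each group the intervals were wide, and a miss here does not show that the levels were alike. KLC3 came nearest, with 1.07 and 0.73 in whole retina and 2.86 and 1.81 in whole eye (difference −0.80, limma adjusted p = 0.155). STMN2 had 81.2 and 68.4 in whole retina and 104 and 127 in whole eye (difference −0.62, limma adjusted p = 0.386). KIF21A had 12.1 and 23.4 in whole retina and 28.8 and 29.3 in whole eye, and its difference passed, at −1.20 and an adjusted p of 0.0102, only without whole retina replicate 2. Of the other listed transport genes 0 passed with limma and 3 of 51 had an unadjusted p under 0.05.

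Central and peripheral retina were each set against whole retina. Both comparisons use the same 2 whole retina libraries and share their regional libraries with the comparison above, so the values are given side by side. In central retina 25 of the 51 genes were higher than in whole retina, where 18.9% of all tested entries were, and 2 were lower, where 29.7% of all tested entries were. In peripheral retina 7 were higher, where 9.83% of all tested entries were, and 2 were lower, where 24.3% of all tested entries were. The median over the 51 genes was 0.42 in central retina, against −0.10 over all tested entries, and 0.11 in peripheral retina, against −0.08 over all tested entries. Of the listed partners, 25 were higher and 4 lower in central retina, and 11 higher and 4 lower in peripheral retina, of 51.

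These counts move with the scaling. Median centring moved the median of all tested entries to 0.08 in central and 0.11 in peripheral retina minus whole retina, and quantile normalization to 0.12 in central and 0.16 in peripheral retina minus whole retina. In peripheral retina the genes called were then 18 higher and 1 lower under centring, where 20.3% of all tested entries were higher and 18.8% lower. Under quantile normalization they were 23 higher and 1 lower, where 26.3% of all tested entries were higher and 16.9% lower, in place of 7 and 2.

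**Figure D4:**
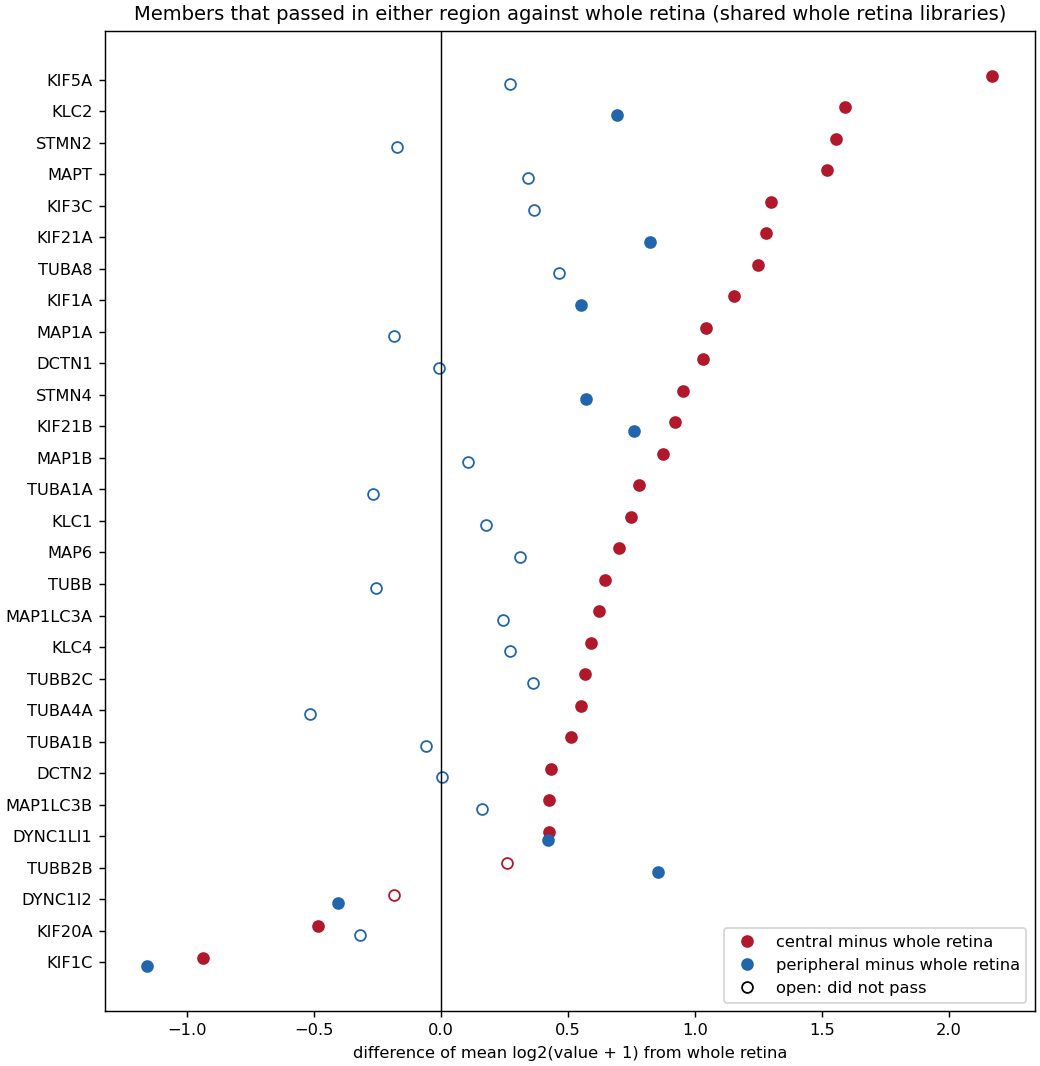
Fitted difference of mean log2(value + 1) from whole retina for central (red) and peripheral retina (blue), for the 29 genes that passed in either comparison; open points did not pass. KIF5A has 2.17 in central retina, TUBB2B has 0.85 in peripheral retina, and KIF1C is below 0 in both; the whole retina libraries are shared.

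KIF5A again led, at 2.17 in central retina (limma adjusted p = 3.72e-05), and at 0.27 in peripheral retina, where it did not pass (limma adjusted p = 0.48). Every regional library had more KLC2 than the 2 whole retina libraries (57.9 and 41.9), and KLC2 was higher in both central (1.59, limma adjusted p = 6.11e-06) and peripheral retina (0.69, limma adjusted p = 0.00525). STMN2 differed by 1.55 in central retina (limma adjusted p = 0.000122) and by −0.17 in peripheral retina (limma adjusted p = 0.601). KLC2 thus passed in both regions, and KIF5A and STMN2 in central retina alone; whether the regions differ is the comparison given first.

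KIF21A, KIF21B, KIF1A, STMN4 and DYNC1LI1 passed in each of the 2 comparisons, as KLC2 did. KIF21A had 35.3, 52.6, 41.9 and 41.3 in central, 36.3, 28.7 and 27.5 in peripheral and 12.1 and 23.4 in whole retina libraries, with differences of 1.28 in central and 0.82 in peripheral retina, at limma adjusted p of 0.00086 and 0.0224. KIF21B differed from whole retina by 0.92 in central and 0.76 in peripheral retina, and KIF1A by 1.16 in central and 0.55 in peripheral retina. STMN4 differed by 0.95 in central and 0.57 in peripheral retina, and DYNC1LI1 by 0.42 in central and 0.42 in peripheral retina. DYNC1LI1 was at the threshold in peripheral retina (limma adjusted p = 0.04998). None of their peripheral calls passed in every fit with a library left out. KLC2 was lost without whole retina replicate 2 (adjusted p = 0.0590), KIF1A without that library or peripheral replicate 1 (up to 0.201), and KIF21A without whole retina replicate 1 or peripheral replicate 1 (up to 0.240). KIF21B was lost without any 1 of the 3 peripheral libraries or whole retina replicate 2 (up to 0.320), STMN4 without whole retina replicate 1 or peripheral replicate 1 or 3 (up to 0.226), and DYNC1LI1 without either whole retina library or peripheral replicate 1 or 2 (up to 0.232). The whole retina libraries differed between themselves for KIF21A and KIF21B, with replicate 1 the lower for KIF21A and the higher for KIF21B (21.4 and 11.7).

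TUBB2B had its highest values in peripheral retina: with 27.0, 29.2 and 29.0 in peripheral and 15.3 and 15.2 in whole retina libraries it was higher in peripheral retina (0.85, limma adjusted p = 0.00118), and it did not pass in central retina (0.26, limma adjusted p = 0.154) except under quantile normalization and median centring. It was the only higher peripheral call to pass with each library left out.

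KIF1C, a kinesin-3 motor found in many tissues, was lower in both regions. Its values were 10.5, 8.68, 10.3 and 10.4 in central and 7.99, 8.96 and 8.27 in peripheral libraries, against 21.8 and 18.2 in whole retina, with whole eye at 23.4 and 16.6. Every regional library was below every whole retina and whole eye library, at differences of −0.94 in central and −1.16 in peripheral retina, at limma adjusted p of 0.000374 and 0.000208, and both calls passed with each library left out. Pigment epithelium markers summed to 64.2 to 532 in the regional libraries, against 2021 and 1881 in whole retina, and fibrous stroma markers to 4.31 to 17.8 in the regional libraries, against 319 and 368 in whole retina. The part of these markers and of the muscle markers in the difference was not tested. KIF20A, a mitotic kinesin, was lower in central retina (0.55, 0.8, 0.6 and 0.56 in central against 1.77 and 0.86 in whole retina libraries), a call lost in 4 of 6 fits with a library left out, whichever of central replicates 1, 3 or 4 or whole retina replicate 1 was absent, at adjusted p up to 0.292. DYNC1I2 was lower in peripheral retina (31.7, 33.2 and 28.0 in peripheral against 39.9 and 42.5 in whole retina libraries, difference −0.40, limma adjusted p = 0.0439), and that call was lost whichever library was left out, at adjusted p up to 0.170.

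Genes higher in central than in whole retina but not called between the regions were MAP6 (0.70), KLC4 (0.59), MAP1LC3A (0.62), MAP1LC3B (0.43), TUBB2C (0.57), KIF21A, KIF21B, STMN4 and DYNC1LI1. MAP6 had 81.1, 87.6, 67.7 and 89.4 in central, 66.6, 54.4 and 64.7 in peripheral and 46.0 and 53.2 in whole retina libraries, so each central library exceeded each other library (limma adjusted p = 0.002 against whole retina). Of the 25 higher calls in central retina, 16 passed with each library left out in turn. KIF21B, MAP1B and TUBB2C were lost without whole retina replicate 2 (limma adjusted p = 0.108, 0.0934 and 0.248), and TUBA1B and TUBB without whole retina replicate 1 (0.0845 and 0.159). MAP1LC3B and DYNC1LI1 were lost without central replicate 2 or whole retina replicate 1 (up to 0.268 and 0.170), and DCTN2 and TUBA4A without central replicate 4 or either whole retina library (up to 0.129 and 0.152). The TUBA4A call was also lost with the replicate number as a block (0.39, limma adjusted p = 0.0860).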

How the data were processed

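Each of the 11 deposited tables holds 1 normalized signal value per entry for 1 library, per the file headers, and the normalization is not stated. Per the submitters' processing notes, reads were aligned and counted with tools that include GSNAP and HTSeq; the versions, genome build and annotation were not given in the labels or headers. Each table has 13083 entries, of which 27 without a number and 61 exact duplicates were dropped, and the 38 left under repeated names are not named. Of the 55 symbols, 52 are in the RefSeq table for T2T-MFA8v1.1; TUBA1A, TUBB2B and TUBB2C are not.

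Libraries were grouped by the labelled tissue. limma 3.58.1 (R 4.3.3) was fitted to log2(value + 1) with 4 group means over all 11 libraries, a variance trend, two-sided tests and Benjamini-Hochberg adjustment over 11933 entries with a group mean of at least 1. All groups share 1 variance per gene. The fit was tested on simulated data. Fold statements are ratios of mean values. The members, roles and lists were chosen with earlier results of these data known, and role groups were read by their counts and medians, without a set test.

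Members were named by a rule: in each comparison, those past the threshold without overlap of the libraries and with a higher group averaging 10 or more, the 8 largest per direction in the first 2 comparisons and the 3 largest in the others, plus a set named whatever its values. Of that set, TUBB3, KIF5C, DYNC1H1 and STMN1 were not analysed here. Members named outside the rule were added after their values were seen. The alternatives were other pseudocounts, filters and scalings, only the groups compared, no variance trend, a replicate block, the members without shared name starts and each library left out. Tables and plots were made with Python 3.11.15, pandas 2.3.3, numpy 2.4.6 and matplotlib 3.10.9.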

Additional observations from a re-analysis of the deposited data

Results flagged for a closer look

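In 3 of the 23 named genes, 1 of the 4 central libraries stood apart from the other 3 by Dixon's test at the 95% level, which chance alone meets in about 1 group in 20. TUBA4A had 81.07 in central replicate 4, the highest, against 54.0 to 57.8 in the other 3; TUB, which shares the start of its name, had 59.0 in that library and 57.8 to 79.0 in the other 3, and an exchange of the 2 values was not tested. KIF5A had 178.03 in central replicate 4, the highest, against 122 to 129.8 in the other 3. KIF1C had 8.68 in central replicate 2, the lowest, against 10.3 to 10.5 in the other 3. Without central replicate 4, TUBA4A and KIF5A still passed as higher in central than in peripheral retina.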

How the results depend on the processing

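Under the alternatives, single gene results were followed for the 23 named genes. No result of these genes that passed changed direction. Of their results under alternatives, 1288 kept their side of the threshold, 31 no longer passed and 21 newly passed. The 1288 include results that passed in neither fit. Among them are results in whole retina minus whole eye, where 0 of the 51 tested genes passed in the main fit. A change of direction was not counted where neither fit passed. The main values were 16 higher and 2 lower with a median of 0.22 in central minus peripheral retina, 25 and 2 with 0.42 in central minus whole retina, and 7 and 2 with 0.11 in peripheral minus whole retina, beside 0 and 0 with −0.05 in whole retina minus whole eye.

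Central minus peripheral retina had a median of 0.32 with a minimum mean of 5 and 0.15 with quantile normalization, and 9 genes higher and 1 lower among the 36 tested without shared name starts. Whole retina minus whole eye had medians of −0.036 with a pseudocount of 5, 0.0197 with quantile normalization, −0.040 with median centring and −0.0588 without shared name starts. Central minus whole retina had medians of 0.30 with a pseudocount of 5, 0.32 with no filter, 0.53 with quantile normalization and 0.61 with median centring. Its lower calls numbered 1 with a minimum mean of 5, both scalings, only the 2 groups compared and the replicate block, and without shared name starts it had 16 higher and a median of 0.28. Peripheral minus whole retina had 23 higher with quantile normalization, 18 with median centring and 3 with only the 2 groups compared, and 1 lower under these and without a variance trend. Its medians were 0.16 with a minimum mean of 5, 0.34 with quantile normalization and 0.29 with median centring. The cause of these shifts was not tested.

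With each library left out in turn, central minus peripheral retina gave 14 to 17 higher, 1 to 2 lower and medians of 0.24 to 0.27. Whole retina minus whole eye gave 0 to 1 higher, 0 to 1 lower and medians of −0.0636 to −0.0396, with 1 of each only without whole retina replicate 2. Central minus whole retina gave 20 to 25 higher, 1 to 3 lower and medians of 0.33 to 0.45. Peripheral minus whole retina gave 3 to 6 higher, 1 to 3 lower and medians of 0.11 to 0.20. Where 1 library was left in a group, it was assumed to vary like the others.

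The labels do not say what the replicate numbers share, and the deviations of same-numbered central and peripheral libraries correlated at −0.14, −0.06 and 0.36, so whether the numbers pair these samples is unknown. The replicate block, in which central replicate 4 has no partner and adds nothing to the regional difference, gave 14 higher, 2 lower and a median of 0.24 in central minus peripheral retina, where MAP1B did not pass (limma adjusted p = 0.0775), and 0 calls in whole retina minus whole eye. It gave 22 higher, 1 lower and a median of 0.30 in central minus whole retina, where TUBA4A did not pass (limma adjusted p = 0.0860). It gave 9 higher, 3 lower and a median of 0.14 in peripheral minus whole retina. Absolute depth is unknown, so no counting interval can be given, and values near 1, as for KLC3, KIF20A, KIF2C and KIF23, rest on the least signal.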

Other observations

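KIF19, a kinesin of motile cilia, varied more within regions than between them, with 1.77, 7.28, 7.07 and 4.32 in central and 7.76, 2.40 and 8.97 in peripheral libraries. NDE1, a dynein regulator among the listed partners, averaged 1.07 in central and 1.12 in peripheral retina, against 137 in whole retina. MYH11, a smooth muscle myosin gene whose human counterpart overlaps that of NDE1, averaged 1.03 in central and 0.977 in peripheral retina, against 369.6 in whole retina. Whether reads of MYH11 were counted under NDE1 was not tested.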
